A study of Mus musculus with 30 samples.

Results

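Adipocytes given indoxyl sulphate together with pNaKtide (IS + pNaKtide) were compared with untreated control adipocytes by RNA sequencing. The comparison holds 10 of the 30 libraries of the cell culture experiment, 5 per group, chosen by their labels. The cells were 3T3-L1, a mouse preadipocyte line, and all groups had been kept in adipogenic medium with insulin, dexamethasone, isobutylmethylxanthine and indomethacin. The control group received neither agent, whereas the IS + pNaKtide group received IS at 100 µM and pNaKtide at 0.7 µM. Companion groups of 5 libraries each received IS alone or pNaKtide alone at the same doses. The labels give 5 days of treatment. The study's methods give a shorter time, with daily doses. All libraries came from 1 cell line, and the labels do not say whether replicates were separate cultures, so p-values measure the spread between libraries, which may be technical.

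IS is a protein-bound uremic toxin. It is formed in the liver from indole, a bacterial product of tryptophan, and it accumulates when the kidneys fail. It is a ligand of the aryl hydrocarbon receptor and is known to raise oxidant stress in cells. The Na/K-ATPase pumps sodium and potassium across the plasma membrane and also holds Src kinase in an inactive state, and pNaKtide is a cell-permeant peptide that inhibits this signaling. Adipocytes store triglyceride, secrete adipokines such as adiponectin, and during differentiation replace a collagen-rich fibroblast matrix.

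The library labelled control replicate 1 stood apart from the other controls, and the comparison was therefore made with and without it. On the first principal component, which held 64.4% of the variance over 12580 genes, control replicates 2 to 5 scored 6.47 to 29.9 and control replicate 1 scored −25.8. The IS + pNaKtide libraries scored −18.5 to −2.45, between these. The library labelled IS replicate 4 also left its group, at 28.2 against −36.7 to −23.2. Control replicate 1 thus lay in the range of the other IS libraries and IS replicate 4 in the range of the other controls, and whether their labels were exchanged was not tested. This axis moved with the GC content of genes. The correlation of a library's deviations with GC content was 0.06 to 0.63 in control replicates 2 to 5, −0.39 in control replicate 1 and −0.50 to −0.13 in the IS + pNaKtide libraries. Total counts did not separate the groups, at 10104438 to 13219298 in control and 11514057 to 13195028 in IS + pNaKtide libraries.

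**Figure D1:**
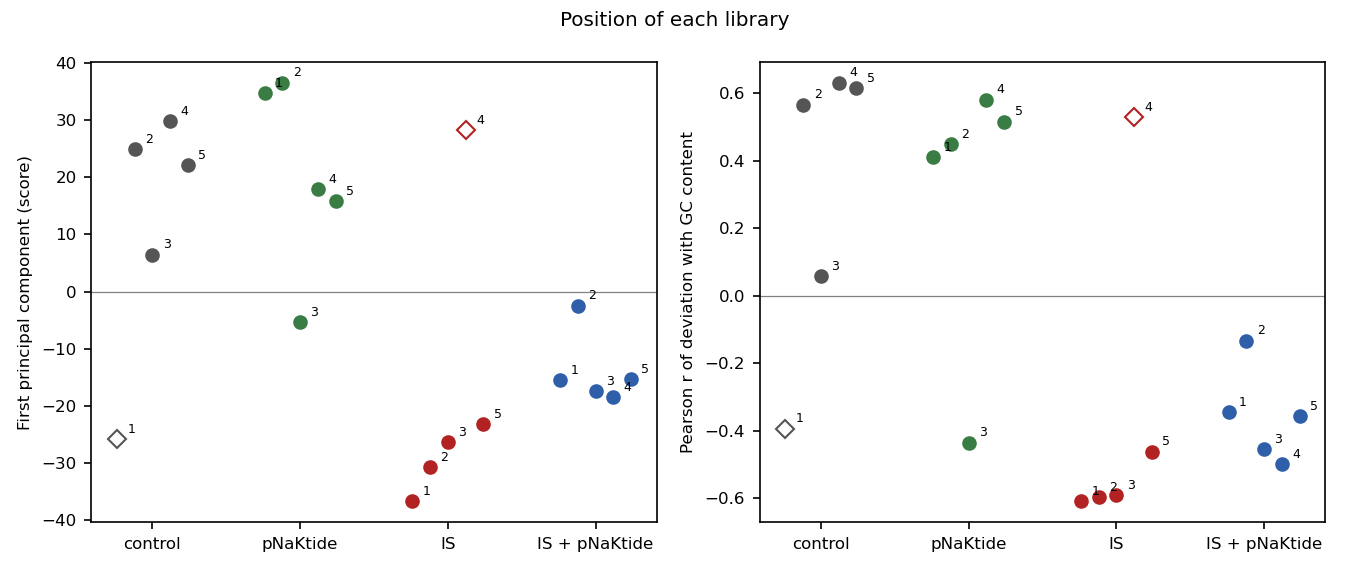
Score on the first principal component (left) and Pearson correlation of each library's log2 deviations with GC content of the genes (right), by group, with replicate numbers beside the points. Control replicate 1 and IS replicate 4 are drawn as open diamonds; control replicate 1 lies at −25.8 and the other controls at 6.47 to 29.9.

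The change between the groups followed GC content in the same way. With all libraries the median log2 difference, IS + pNaKtide minus control, was 0.34 in the tenth of genes with the lowest GC content and −0.20 in the tenth with the highest. Without control replicate 1 these medians were 0.47 and −0.26. Control replicate 1 minus the other controls gave 0.50 and −0.34, so the library differed from its group in the direction of the treated cells. Values are also given from a second fit, called trend-adjusted, in which the dependence of a library's counts on the GC content and length of genes had been removed. Whether the trend came from the treatment or from library preparation was not tested.

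**Figure D2:**
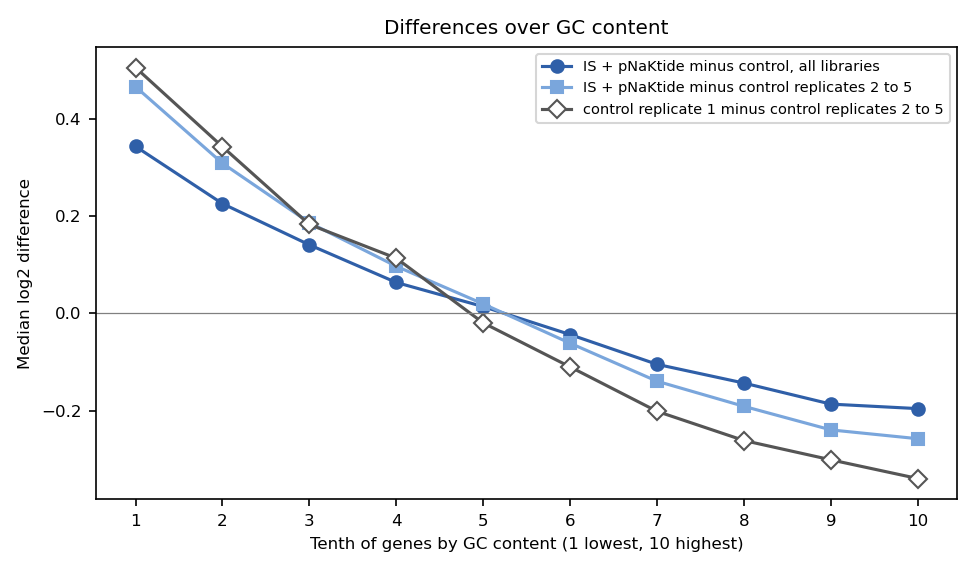
Median log2 difference (vertical axis) in 10 equal bins of genes ordered by GC content (horizontal axis). Circles and squares show IS + pNaKtide minus control with all libraries (0.34 falling to −0.20) and without control replicate 1 (0.47 falling to −0.26), and open diamonds show control replicate 1 minus the other controls (0.50 falling to −0.34).

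The cells carried the markers of their label. On the FPKM scale, which is per length, Cidec, a lipid droplet protein, was at 3115 ± 481 in control and 2373 ± 75.3 in IS + pNaKtide libraries (SD, n = 5). Adipoq, which encodes adiponectin, was at 766 ± 111 and 617 ± 80.7. Fabp4, at 509 ± 20.9 and 550 ± 45.1, and Cd36, at 211 ± 27.5 and 272 ± 12.2, had higher means in IS + pNaKtide libraries. Plin1 was at 126 ± 17.8 and 124 ± 10.9. The 12 adipocyte markers summed to 14402 to 18064 CPM in control and 13737 to 15886 CPM in IS + pNaKtide libraries, with overlap. Of 6 macrophage markers, Adgre1, Itgam and Ptprc had no count in the 10 libraries, and the summed macrophage markers were at 4.27 to 7.90 CPM in control and 5.89 to 8.05 CPM in IS + pNaKtide libraries. Preadipocyte markers summed to 398 to 500 CPM in control and 300 to 426 CPM in IS + pNaKtide libraries. Endothelial and skeletal muscle markers reached at most 2.21 CPM in sum in every one of these libraries. In bulk libraries, fewer cells of a kind and less RNA per cell cannot be told apart.

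With all libraries, 72 of 20139 genes tested passed a Benjamini–Hochberg (BH)-adjusted p of 0.1 in edgeR's quasi-likelihood test, which is 0.358%. Of these, 28 were higher and 44 were lower in IS + pNaKtide cells, and 3 differed by more than 2-fold. Without control replicate 1 the count was 5378 (26.7%), 2908 higher and 2470 lower, of which 504 differed by more than 2-fold. All 72 genes were among the 5378, in the same direction. The trend-adjusted fit called 418 genes with all libraries (2.08%; 0.943% higher and 1.13% lower) and 3518 without control replicate 1 (17.5%; 8.62% higher and 8.85% lower), and 59 of the 72 genes passed in every one of the 4 fits. Of the 5378 genes, 2465 passed in the trend-adjusted fit in the same direction, and 282 changed sign.

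The number depended on the libraries and on the method. Leaving out any other single library of these 2 groups left 2 to 21 genes, and leaving IS replicate 4 out of the fit, which estimates the spread over all 6 groups, gave 1398. With all libraries, 1152 genes were called when only the 2 groups were fitted, 1338 with the replicate number as a block, 1486 in DESeq2 and 9049 in limma-voom with library weights. Below, a gene of the 72 is given with all libraries unless said otherwise, and also passed without control replicate 1. A gene given only without control replicate 1 did not pass with it. Without control replicate 1, leaving out control replicate 4, 2 or 5 as well left 2233, 3037 or 3296 genes. When counts were scaled by library size alone, the 5405 genes called without control replicate 1 split into 3998 higher and 1407 lower, and the median over all genes rose from 0.03 to 0.14 on the log2 scale. In 763 genes (3.79%; 2.15% higher and 1.64% lower) the 5 IS + pNaKtide libraries did not overlap the 5 controls, and in 4808 (23.9%; 11.6% higher and 12.2% lower) they did not overlap control replicates 2 to 5. They did not overlap the pNaKtide libraries in 9.59% of genes and the IS libraries in 0.834%.

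**Figure D3:**
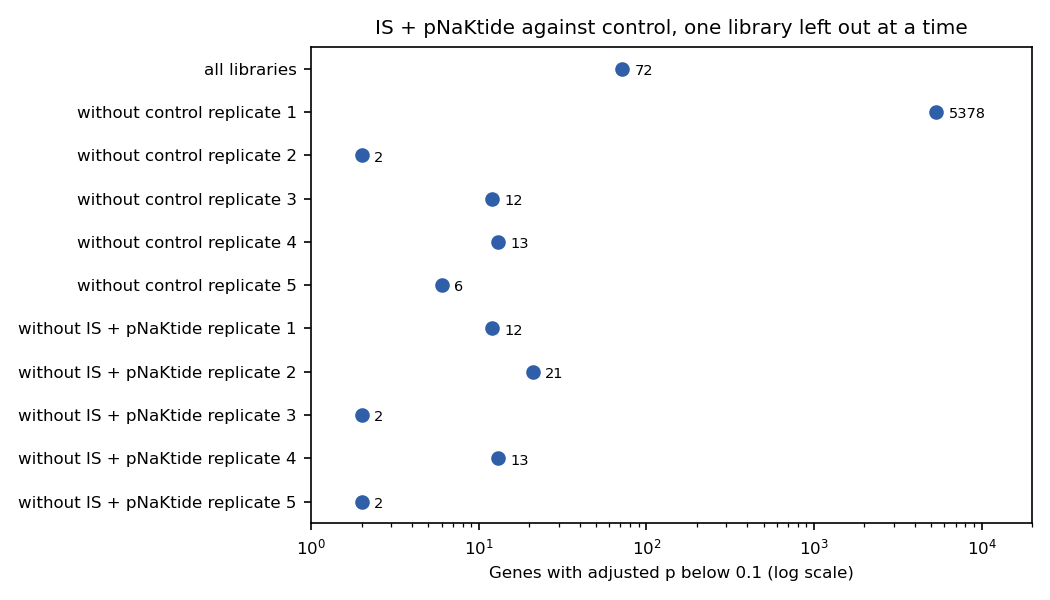
Number of genes with a BH-adjusted p below 0.1 for IS + pNaKtide against control (log scale) with all libraries and with each of the 10 libraries left out in turn. All libraries gave 72 genes, the fit without control replicate 1 gave 5378, and the other fits gave 2 to 21.

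The most stable differences were in Pop1 and Sbsn, which were singled out after their values were seen because they passed in all 10 fits with a library left out. Pop1 (ENSMUSG00000022325, chr15:34495304-34530648, GRCm38) encodes a protein subunit of RNase P and RNase MRP, the ribonucleases that process transfer and ribosomal RNA precursors. Its level was 20.3, 22.7, 26.6, 27.9 and 27.4 CPM in control replicates 1 to 5 and 15.1, 15.3, 18.2, 15.6 and 15.8 CPM in IS + pNaKtide replicates 1 to 5. The groups did not overlap, and the log2 difference was −0.64 ± 0.11 (SE, adjusted p = 0.0180 in edgeR). It was −0.71 without control replicate 1 and −0.61 in the trend-adjusted fit with all libraries. Cells given pNaKtide alone were at 22.3 to 27.4 CPM, within the range of the controls, and those given IS alone at 14.1 to 20.5 CPM.

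Sbsn (ENSMUSG00000046056, chr7:30751471-30756134) encodes suprabasin, a secreted protein first known from keratinocytes. Control libraries were at 37.0, 40.1, 44.5, 39.7 and 48.9 CPM and IS + pNaKtide libraries at 25.6, 21.9, 27.3, 26.7 and 32.2 CPM, again without overlap. The log2 difference was −0.65 ± 0.11 (adjusted p = 0.0180) and it was −0.69 without control replicate 1 and −0.57 in the trend-adjusted fit. With pNaKtide alone the level was 39.0 to 45.3 CPM, and with IS alone it was 20.7 to 34.7 CPM. Prelp and Acer2 passed in 7 and Folh1 in 6 of the 10 fits.

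The largest increase called with all libraries was that of 4631405J19Rik, an antisense transcript of low level and outside the naming rule, from 1.27 to 2.71 CPM (log2 difference 1.10, adjusted p = 0.0429). The clone-named genes 9930104L06Rik and E130311K13Rik rose by 0.72 and 0.66. These 3 were named after their values were seen. The other genes that rose had varied roles. Epm2a, the glycogen phosphatase laforin, was at 2.71, 2.45, 2.58, 1.69 and 2.65 CPM in control and 5.07, 3.59, 4.20, 4.14 and 4.05 CPM in IS + pNaKtide libraries, with a log2 difference of 0.79 ± 0.17 (adjusted p = 0.0651). Acer2, the alkaline ceramidase of the Golgi that releases sphingosine, was at 6.73, 7.43, 8.40, 6.65 and 7.76 CPM against 10.6, 11.0, 11.5, 11.7 and 12.3 CPM. Its log2 difference was 0.63 ± 0.12 (adjusted p = 0.0344) and 0.56 in the trend-adjusted fit, and no treated library reached down to the controls. Klf6, a zinc finger factor that is an early gene of adipogenesis, rose by 0.58 with all libraries and by 0.75 without control replicate 1, with trend-adjusted values of 0.35 and 0.43. At 43.5 CPM, control replicate 1 lay within the treated range of 40.0 to 49.8 CPM for Klf6, and the other controls lay at 24.3 to 31.3 CPM.

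Of the other genes in this group, Folh1 rose by 0.77 on the log2 scale, Tmem243 by 0.75, Tnfaip8 by 0.61, Tbc1d19 by 0.58, Yipf4 by 0.57, Atp6ap2 by 0.56 and Nectin3 by 0.55. Folh1 is a folate hydrolase, Tnfaip8 is a TNF-induced regulator of cell death, Atp6ap2 is an accessory subunit of the vacuolar proton pump, and Nectin3 is a cell adhesion molecule. In the trend-adjusted fit with all libraries, Folh1, Tmem243 and Yipf4 no longer passed, with adjusted p of 0.169, 0.217 and 0.144. Their GC content was 37.7% to 40.0%. Further called genes of carbohydrate metabolism, named after their values were seen, were Pdk1, the pyruvate dehydrogenase kinase, with a log2 increase of 0.46 (adjusted p = 0.0775), and Ppp1r3c, a glycogen-targeting subunit of protein phosphatase 1, with 0.37 (adjusted p = 0.0700). Pdk1 was at 64.8 to 78.0 CPM in control and 94.2 to 101 CPM in IS + pNaKtide libraries.

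Among the 72 genes the largest decreases were in Aldh3a1 and Col1a1. Aldh3a1, an aldehyde dehydrogenase, fell by 1.05 on the log2 scale. Control libraries were at 1.64, 4.19, 2.67, 2.64 and 3.31 CPM and IS + pNaKtide libraries at 1.72, 1.63, 1.30, 1.07 and 1.30 CPM for Aldh3a1, so that control replicate 1 lay within the treated range. Aqp1, a water channel, fell by 0.90, from 37.3 to 53.1 CPM in control to 15.1 to 35.6 CPM in treated libraries. Sez6l2 fell by 0.97, Ybx2 by 0.95, Gbgt1 by 0.81 and Mettl7b by 0.73. Sez6l2, Ybx2 and Gbgt1 are low-count genes, at 2.95 to 3.64, 2.13 to 3.69 and 2.93 to 4.68 CPM in control libraries. Gbgt1 did not pass in the trend-adjusted fit (adjusted p = 0.125), whereas Sez6l2 and Ybx2 did (adjusted p = 0.0393 for each).

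**Figure D4:**
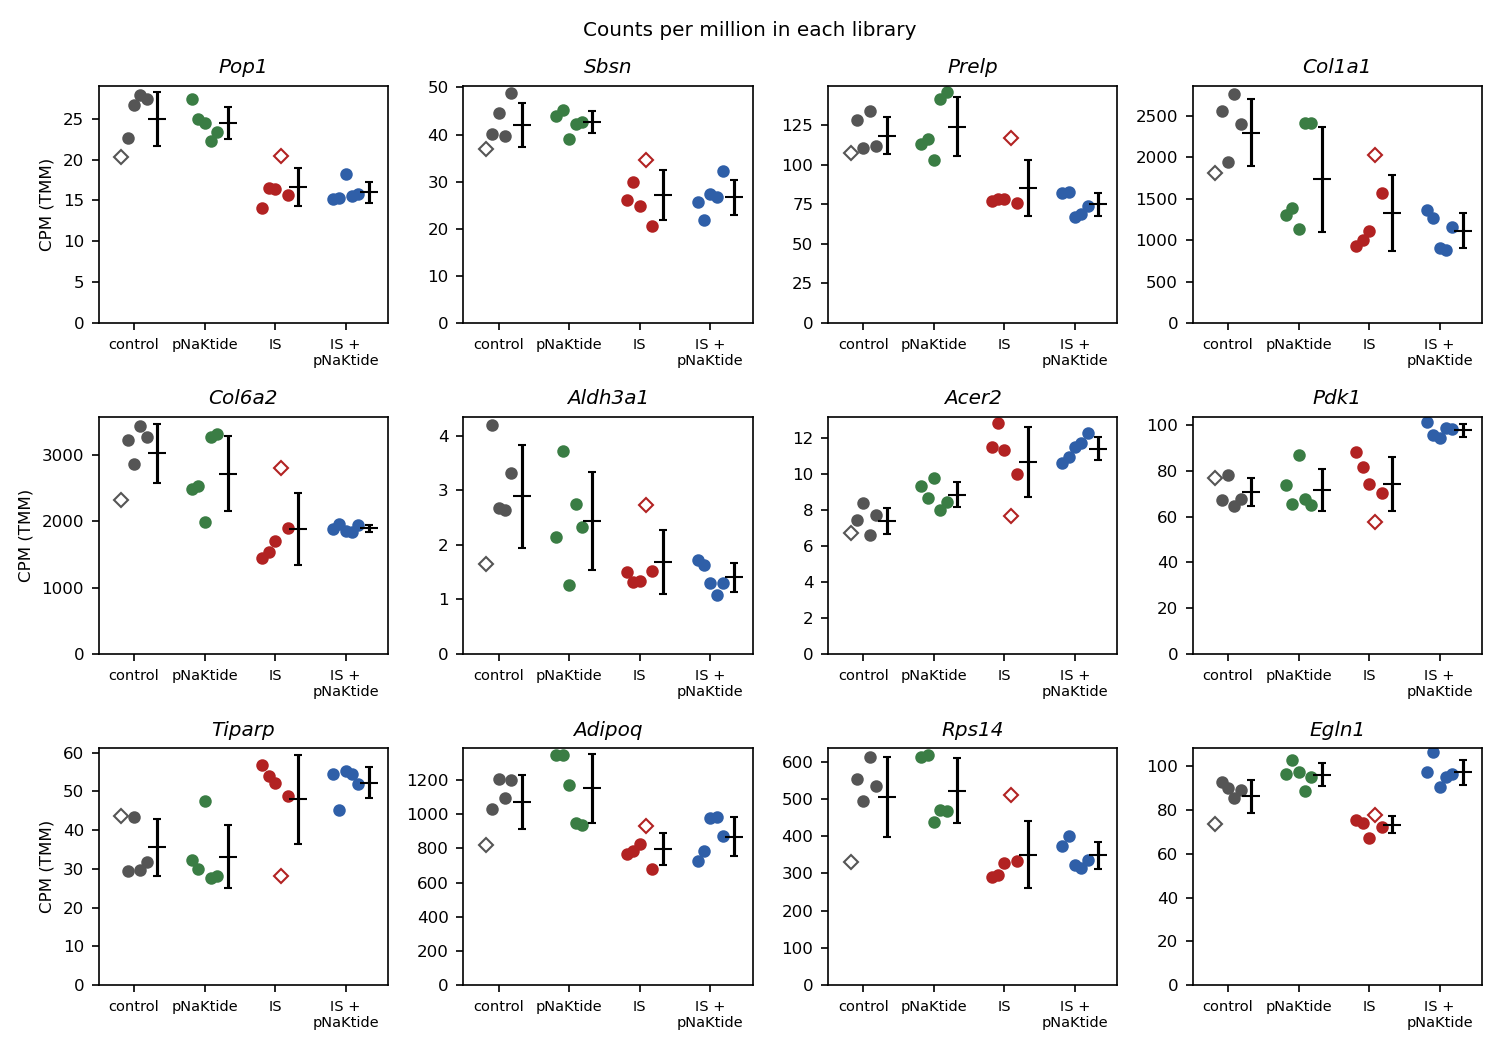
CPM (counts scaled to library size by TMM) of 12 genes (one panel each) in every library of the control, pNaKtide, IS and IS + pNaKtide groups, with the mean ± SD as a bar beside the points. Open diamonds mark control replicate 1 and IS replicate 4. For Pop1, Sbsn, Prelp, Col1a1, Col6a2, Acer2, Pdk1 and Tiparp the IS + pNaKtide libraries do not overlap any control, while for Aldh3a1, Adipoq and Rps14 control replicate 1 lies within the treated range.

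Several collagen genes were lower in IS + pNaKtide cells whether or not control replicate 1 was included. Of 26 collagen chains, 4 fell and none rose with all libraries, against 0.218% of all genes that were lower. Without control replicate 1, 11 fell and 2 rose, against 12.3% and 14.4% of all genes. The trend-adjusted fits called 12 lower and 1 higher with all libraries, beside 1.13% and 0.943% of all genes, and 13 lower and 2 higher without control replicate 1, beside 8.85% and 8.62%. The median over the 26 chains was −0.40, −0.35, −0.33 and −0.34 in these 4 fits, beside a median over all genes of 0.01 to 0.03. Summed collagen counts were 29236 to 34460 CPM in control libraries, with control replicate 1 at 29857 CPM, and 21091 to 23614 CPM in IS + pNaKtide libraries. The groups did not overlap in this sum. Against IS alone none of the 26 chains was called, and their median was −0.07 beside −0.01 over all genes.

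Col1a1, the alpha1 chain of type I collagen (ENSMUSG00000001506, chr11:94936224-94953042), was at 1809, 2552, 1939, 2761 and 2400 CPM in control and 1361, 1263, 908, 877 and 1155 CPM in IS + pNaKtide libraries. It fell by 1.04 ± 0.22 (SE, adjusted p = 0.0568), by 1.12 without control replicate 1 and by 0.91 in the trend-adjusted fit. Its partner Col1a2 was at 3001 to 4012 CPM in control and 1888 to 2475 CPM in treated libraries and fell by 0.68. Col6a2, a chain of the beaded filament type VI, was at 2325 to 3443 CPM against 1841 to 1962 CPM and fell by 0.67. Col15a1, a basement membrane chain, was at 27.9 to 44.8 CPM against 21.9 to 24.1 CPM and fell by 0.58. None of these 4 chains overlapped between the groups. The same held for 54 of the 72 genes called with all libraries, to which these chains belong. Of all genes, 1.64% were lower without overlap. Col7a1, the anchoring fibril chain, went the other way, at 1.13 to 1.90 CPM in control replicates 2 to 5, 3.36 CPM in control replicate 1 and 3.42 to 4.06 CPM in treated libraries, with an adjusted p of 0.116 with all libraries and 0.00637 without control replicate 1.

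The promoter of Col1a2 is shown because its chain and Col1a1 form 1 fibril protein and fell together. The 250 bases before its start in RefSeq, on GRCm38.p6, chr6:4505368-4505617, plus strand, hold 1 CCAAT box, the letters bound by the factor NF-Y, in capitals.
Col1a2: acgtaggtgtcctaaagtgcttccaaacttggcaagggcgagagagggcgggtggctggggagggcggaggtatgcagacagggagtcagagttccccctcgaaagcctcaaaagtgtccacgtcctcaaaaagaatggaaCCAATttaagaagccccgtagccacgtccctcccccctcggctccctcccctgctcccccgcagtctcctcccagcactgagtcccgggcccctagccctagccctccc
CCAAT or its reverse complement ATTGG stood in 33.8% of the 32851 promoter windows of this length, so that the match describes the sequence and says nothing of its use.

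Other matrix genes gave calls mainly without control replicate 1 or with the trend taken out. Of 34 laminins, integrins and matrix glycoproteins, none passed with all libraries, 12 fell and 2 rose without control replicate 1, beside 12.3% and 14.4% of all genes, and in the trend-adjusted fits 10 and 14 fell and none rose, beside 1.13% and 8.85% of all genes lower, with medians of −0.25, −0.22, −0.25 and −0.25. Prelp, a small leucine-rich proteoglycan that anchors basement membranes to collagen, was at 107, 128, 111, 134 and 112 CPM in control and 82.2, 83.1, 66.9, 68.9 and 73.8 CPM in IS + pNaKtide libraries. It fell by 0.66 ± 0.12 (adjusted p = 0.0271) without any overlap, and by 0.57 in the trend-adjusted fit. With IS alone Prelp was at 75.9 to 117 CPM. Serpinh1, the collagen chaperone HSP47, fell by 0.46 with all libraries and by 0.55 without control replicate 1, and the trend-adjusted values were −0.30 and −0.34. Its level in control replicate 1 was 523 CPM, within the treated range of 453 to 594 CPM, and the other controls were at 703 to 794 CPM. Tnn, a tenascin, and Acta2, the smooth muscle actin of contractile fibroblasts, were among the largest decreases without control replicate 1, at −1.32 and −1.11, and did not pass with all libraries (adjusted p = 0.151 and 0.140). Pdgfrb, a growth factor receptor of fibroblasts, was at 85.0 to 105 CPM in control and 56.3 to 84.5 CPM in treated libraries, with an adjusted p of 0.113 with all libraries and 0.0185 without control replicate 1.

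**Figure D5:**
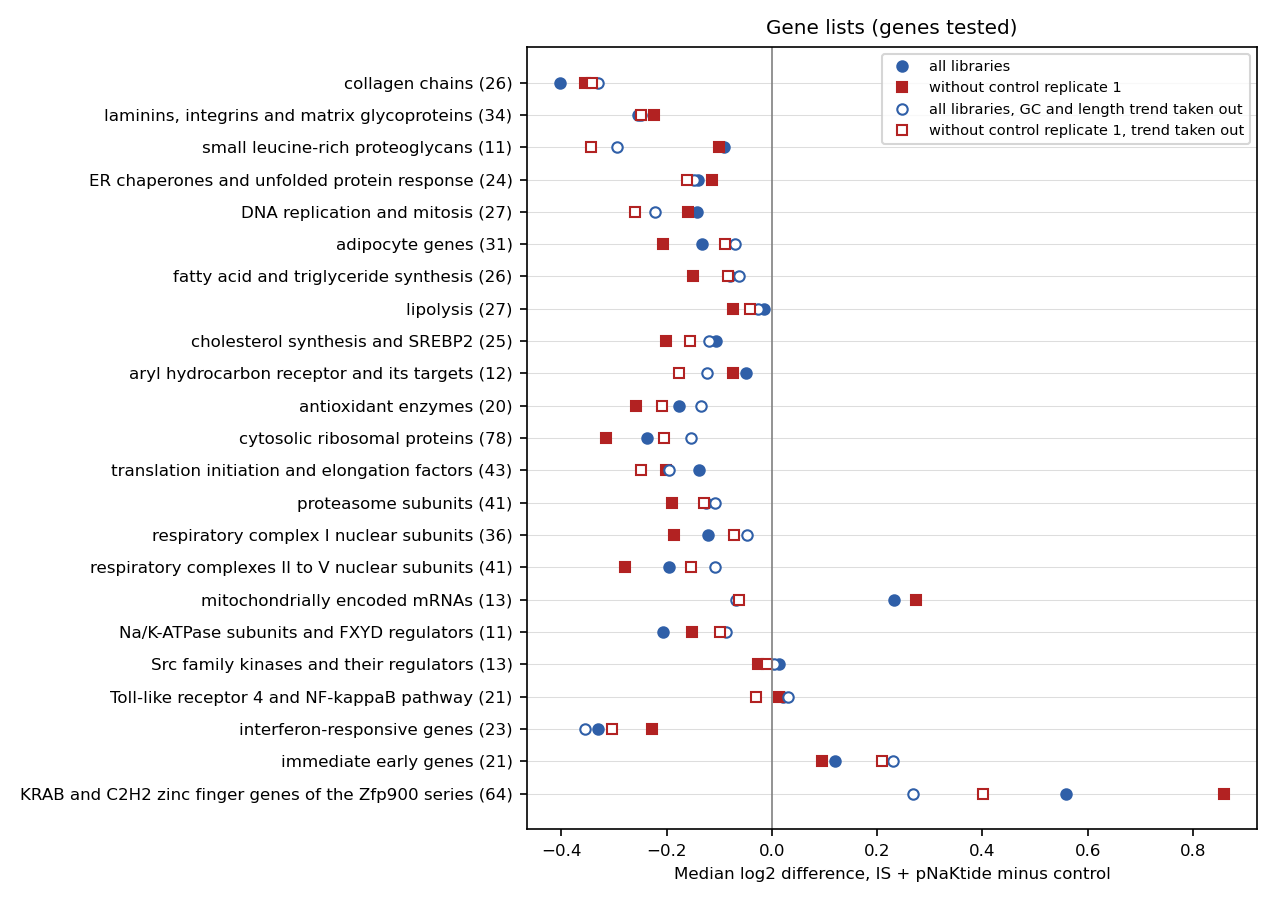
Median log2 difference, IS + pNaKtide minus control, over the tested members of 23 gene lists (number of genes in brackets). Filled symbols show the fits with all libraries (circles) and without control replicate 1 (squares), and open symbols show the same with the GC and length trend taken out. Collagen chains lie at −0.40 to −0.33 in all 4 fits, whereas mitochondrially encoded mRNAs go from 0.23 and 0.27 to −0.07 and −0.06.

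Some genes of the secretory pathway were lower. Of 24 ER chaperones and genes of the unfolded protein response, 1 fell with all libraries (0.218% of all genes) and 9 fell and 1 rose without control replicate 1 (12.3% and 14.4% of all genes), and the trend-adjusted fits called 8 and 12 lower, beside 1.13% and 8.85% of all genes, and none higher. The medians were −0.14, −0.11, −0.15 and −0.16. Hyou1, an ER chaperone of the HSP70 family, was at 147 to 177 CPM in control and 124 to 132 CPM in treated libraries and fell by 0.32 (adjusted p = 0.0664). Calr, the lectin chaperone calreticulin, was at 1934 to 2064 CPM in control replicates 2 to 5, 1434 CPM in control replicate 1 and 1349 to 1520 CPM in treated libraries. It fell by 0.53 without control replicate 1 and had an adjusted p of 0.131 with it. Sec61a1, the channel through which new proteins enter the ER, fell by 0.32 (adjusted p = 0.0915) and was named after its values were seen.

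IS is a ligand of the aryl hydrocarbon receptor, whose targets include cytochromes of family 1 and the repressor Tiparp. Of 12 genes, 1 fell and none rose with all libraries, beside 0.218% and 0.139% of all genes. The gene that fell was Aldh3a1, described above, which passed in all 4 fits, at −1.05, −1.21, −0.93 and −1.03. Without control replicate 1, 3 rose and 2 fell, beside 14.4% and 12.3% of all genes, and in the trend-adjusted fit 1 rose and 3 fell, beside 8.62% and 8.85%. Cyp1a1, the classic target, was at 0.0757 CPM in control and 0.0595 CPM in IS + pNaKtide libraries, too low to be read. The receptor Ahr was at 1.24 and 1.35 CPM. The 250 bases before the starts of Cyp1b1 (chr17:79715062-79715311, minus strand) and Tiparp (chr3:65528197-65528446, plus strand; RefSeq, GRCm38.p6) are shown because both genes rose without control replicate 1 and each window holds 1 copy of the receptor's core letters GCGTG, here as the reverse complement CACGC in capitals.
Cyp1b1: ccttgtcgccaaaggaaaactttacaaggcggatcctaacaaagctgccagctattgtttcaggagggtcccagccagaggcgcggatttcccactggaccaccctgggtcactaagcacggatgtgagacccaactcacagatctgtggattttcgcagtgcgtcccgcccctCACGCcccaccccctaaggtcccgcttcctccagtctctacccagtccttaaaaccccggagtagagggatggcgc
Tiparp: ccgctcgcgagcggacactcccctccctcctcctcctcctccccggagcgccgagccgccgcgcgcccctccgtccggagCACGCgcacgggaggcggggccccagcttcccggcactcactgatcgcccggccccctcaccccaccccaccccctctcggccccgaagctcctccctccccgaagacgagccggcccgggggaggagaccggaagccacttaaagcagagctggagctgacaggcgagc
GCGTG or CACGC stood in 28.2% of the 32851 windows. Both windows were shown partly because they hold these letters, so the matches describe the sequences and say nothing of their use.

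Cyp1b1 was at 308 CPM in control replicate 1, 231 to 252 CPM in the other controls and 302 to 310 CPM in IS + pNaKtide libraries. Its increase of 0.33 without control replicate 1 passed (adjusted p = 0.0234), and neither the value with all libraries (0.25, adjusted p = 0.180) nor the trend-adjusted value without control replicate 1 (0.14, adjusted p = 0.127) did. Tiparp was at 43.7, 29.3, 43.3, 29.8 and 31.7 CPM in control and 54.5, 45.3, 55.1, 54.4 and 51.8 CPM in IS + pNaKtide libraries, without overlap. Its log2 difference was 0.55 with all libraries (adjusted p = 0.147), 0.64 without control replicate 1 (adjusted p = 0.0195) and 0.25 in the trend-adjusted fit without control replicate 1 (adjusted p = 0.0356). Tiparp was at 48.0 ± 11.5 CPM with IS alone and 33.1 ± 8.19 CPM with pNaKtide alone (SD, n = 5). Nqo1, a target shared with Nrf2, was at 21.3 to 27.6 CPM in control and 22.7 to 24.7 CPM in treated libraries. Of 21 Nrf2 target genes none passed with all libraries, and 5 fell and 2 rose without control replicate 1, beside 12.3% and 14.4% of all genes, while the trend-adjusted fit called 8 lower and 1 higher, beside 8.85% and 8.62%. Of 20 antioxidant enzymes, none passed with all libraries and 9 fell and 2 rose without control replicate 1 (6 and 1 in the trend-adjusted fit), against the same shares of all genes, among them Sod3, the extracellular superoxide dismutase, which fell by 0.63 (adjusted p = 0.0190).

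The mean summed level of adipocyte genes was lower in IS + pNaKtide cells, but the libraries of the 2 groups overlapped, also without control replicate 1. The 31 genes summed to 29188 ± 2127 CPM in IS + pNaKtide and 32066 ± 2523 CPM in control libraries (SD, exact permutation p = 0.0873, two-sided, with 0.00794 as the smallest value that 5 against 5 allows). Against control replicates 2 to 5, at 33002 ± 1623 CPM, the exact permutation p was 0.0476. Control replicate 1 had the lowest control sum, at 28319 CPM, so leaving it out widened the difference. The ranges still overlapped, at 26969 to 31243 CPM in IS + pNaKtide libraries and 30835 to 34622 CPM in control replicates 2 to 5. With all libraries the difference was −2877 CPM, and −1076 CPM with scaling by library size only (exact permutation p = 0.413). Of the 31, 1 fell with all libraries, beside 0.218% of all genes. Without control replicate 1, 12 fell and 1 rose, beside 12.3% and 14.4% of all genes. The trend-adjusted fits called 2 and 10 lower, beside 1.13% and 8.85% of all genes, and 0 and 2 higher, beside 0.943% and 8.62%. The medians in the 4 fits were −0.13, −0.21, −0.07 and −0.09.

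Adipoq was at 818, 1033, 1206, 1096 and 1199 CPM in control and 723, 786, 978, 983 and 870 CPM in treated libraries. The decrease of 0.38 without control replicate 1 passed (adjusted p = 0.0339), and the value of −0.30 with all libraries did not (adjusted p = 0.200). Pparg, the master regulator of adipogenesis, fell by 0.23 without control replicate 1 (adjusted p = 0.0552). This call held in 5 of the 9 fits with a further library left out, and the largest adjusted p was 0.141, without control replicate 5. Its partner Cebpa fell by 0.37 (adjusted p = 0.0237, and 0.101 without control replicate 5 as well) but was at −0.14 in the trend-adjusted fit (adjusted p = 0.410). Fabp4, Plin1 and Lpl, which carry, coat and release fatty acids, did not pass with or without control replicate 1, at log2 differences of 0.14, −0.07 and −0.13 without it. In the trend-adjusted fit without control replicate 1, Lpl fell by 0.47 (adjusted p = 0.0134), and Fabp4 and Plin1 did not pass. Cd36, the fatty acid transporter, was at 671 to 917 CPM in control and 944 to 1053 CPM in treated libraries and rose by 0.40 without control replicate 1 (adjusted p = 0.0632), while its trend-adjusted value was −0.07 and did not pass. The Cd36 call held in 4 of the 9 fits with a further library left out, with an adjusted p of up to 0.180, without control replicate 4. The GC content of Cd36 is 38.4%.

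Enzymes of triglyceride turnover were among the 72 genes. Dgat2, which makes the last step of triglyceride synthesis, was at 235, 286, 275, 303 and 298 CPM in control and 193, 207, 224, 229 and 227 CPM in IS + pNaKtide libraries and fell by 0.37 ± 0.09 (adjusted p = 0.0741). Mgll, the monoglyceride lipase that ends lipolysis, was at 13.0, 14.2, 15.9, 16.8 and 17.8 CPM in control libraries, above every treated library, and fell by 0.49 ± 0.11 (adjusted p = 0.0700). Both genes also passed without control replicate 1 and in both trend-adjusted fits. Of 26 genes of fatty acid and triglyceride synthesis, 1 fell with all libraries, beside 0.218% of all genes. Without control replicate 1, 9 fell and 2 rose, beside 12.3% and 14.4% of all genes, and 7 fell and none rose in the trend-adjusted fit, beside 8.85% and 8.62%. Of 25 genes of cholesterol synthesis, none passed with all libraries, 10 fell and 6 rose without control replicate 1, and 10 fell and 1 rose in the trend-adjusted fit, against the same shares of all genes. Acadm, the medium-chain acyl-CoA dehydrogenase of fatty acid oxidation, was at 209 to 256 CPM in control and 275 to 360 CPM in treated libraries and rose by 0.46 without control replicate 1 (adjusted p = 0.0241). Far2, which makes fatty alcohols and was noticed after its values were seen, fell by 0.55 (adjusted p = 0.0429).

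For genes of protein synthesis and respiration the calls came mainly from the fits without control replicate 1. None of 78 cytosolic ribosomal proteins passed with all libraries, and 33 fell without control replicate 1, against 12.3% of all genes. The trend-adjusted fits called 2 and 23 lower, beside 1.13% and 8.85% of all genes, and the medians were −0.24, −0.32, −0.15 and −0.20. Rps14 was at 330 CPM in control replicate 1, 495 to 612 CPM in the other controls and 314 to 400 CPM in IS + pNaKtide libraries. Of 43 translation factors, 18 fell and 7 rose without control replicate 1, beside 12.3% and 14.4% of all genes, and 22 fell and 6 rose in the trend-adjusted fit, beside 8.85% and 8.62%. Eif3i, a subunit of initiation factor 3, was at −0.53. Of 41 proteasome subunits, 13 fell and 2 rose, and 14 fell and 1 rose in the trend-adjusted fit, against the same shares. Psmb3 was among them at −0.47. Of 36 nuclear subunits of respiratory complex I and 41 of complexes II to V, 14 and 19 fell and 1 of each rose, and the trend-adjusted fit called 9 and 14 lower and 2 and 1 higher, again against these shares. Ndufa13 of complex I fell by 0.62 and Sdhc of complex II by 0.41. In both genes control replicate 1 was lower than every treated library, at 169 CPM for Ndufa13 and 164 CPM for Sdhc. Of 13 mRNAs made in the mitochondria, 6 rose without control replicate 1, beside 14.4% of all genes, and 1 did in the trend-adjusted fit, beside 8.62%, where the median turned from 0.27 to −0.06.

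In 4887 of the 5378 genes called without control replicate 1 (90.9%), that library lay nearer to the IS + pNaKtide mean than to the mean of the other controls. This held for 40 of the 72 genes called with all libraries (55.6%). Genes with the largest increases without control replicate 1 were likewise mostly as high, or nearly as high, in that library as in treated ones. Dnm3os, the noncoding precursor of a muscle and fibroblast microRNA cluster, was at 24.1 CPM in control replicate 1, 3.97 to 5.53 CPM in the other controls and 15.0 to 18.9 CPM in IS + pNaKtide libraries. Its log2 difference was 1.75 without control replicate 1 and 0.89 with it (adjusted p = 0.241). The noncoding RNA Snhg20 was at 8.86, 2.55 to 3.59 and 6.13 to 9.43 CPM in the same order, and Gdap10 and Spag1 rose by 1.70 and 1.35 without control replicate 1. Neat1, the scaffold RNA of paraspeckles, was at 198, 62.4 to 85.0 and 141 to 184 CPM. Of 64 zinc finger genes of the Zfp900 series, most of which encode KRAB repressors, none passed with all libraries and 38 rose without control replicate 1, against 14.4% of all genes. Their median was 0.86, and in the trend-adjusted fit 11 rose, beside 8.62% of all genes, and the median was 0.40. Their median GC content was 38.7%. Zfp994 and Zfp442 rose by 1.40 and 1.33, and Zfp964 by 0.93.

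Some genes of DNA replication and mitosis were lower. Of 27, 1 fell with all libraries (0.218% of all genes), 10 fell and none rose without control replicate 1 (12.3% and 14.4% of all genes), and the trend-adjusted fits called 4 and 13 lower, beside 1.13% and 8.85% of all genes, and none higher. The medians were −0.14, −0.16, −0.22 and −0.26. Mcm5, a subunit of the replicative helicase, was at 40.7 to 48.9 CPM in control replicates 2 to 5, 30.2 CPM in control replicate 1 and 23.9 to 35.1 CPM in treated libraries and fell by 0.53 (adjusted p = 0.0972). Cdkn1a, the cyclin kinase inhibitor p21, fell by 0.45 without control replicate 1 (adjusted p = 0.00824) and had an adjusted p of 0.147 with all libraries. Of 20 p53 targets and kinase inhibitors, 4 rose and 4 fell without control replicate 1, beside 14.4% and 12.3% of all genes. Socs2, a feedback inhibitor of growth hormone signaling, was at 20.5 to 23.9 CPM in control and 28.8 to 30.3 CPM in treated libraries and rose by 0.40 (adjusted p = 0.0585), but did not pass in the trend-adjusted fit (adjusted p = 0.174). Cul3, a scaffold of ubiquitin ligases, and Nr3c1, the glucocorticoid receptor, rose by 0.77 and 0.62 without control replicate 1, with trend-adjusted values of 0.27 and 0.25. With all libraries neither passed (adjusted p = 0.154 and 0.200).

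Of 11 subunits and regulators of the Na/K-ATPase, none passed with all libraries and 4 fell and 1 rose without control replicate 1, beside 12.3% and 14.4% of all genes. The trend-adjusted fit called 2 lower and 1 higher, beside 8.85% and 8.62%. Atp1b1, a beta subunit, did not pass in any of the 4 fits. Src was at 23.5 to 29.2 CPM in control and 23.3 to 27.2 CPM in treated libraries. Among 13 Src family kinases and regulators, 2 rose and 2 fell without control replicate 1, near the shares of all genes. Yes1, a Src family kinase, rose by 1.01 (trend-adjusted 0.59), and Csk, the kinase that inhibits the family, fell by 0.43 (trend-adjusted −0.23), and all 4 values passed. Yes1 was at 19.4 CPM in control replicate 1, 7.91 to 11.5 CPM in the other controls and 15.6 to 20.9 CPM in treated libraries.

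Of 21 genes of the Toll-like receptor 4 and NF-kappaB pathway, none passed with all libraries, and 4 rose and 6 fell without control replicate 1, beside 14.4% and 12.3% of all genes. The trend-adjusted fit called none higher and 2 lower, beside 8.62% and 8.85%. Tlr4, the receptor, rose by 0.55 and Chuk, the kinase IKK-alpha, by 0.62, but their trend-adjusted values of 0.08 and 0.24 did not pass. Creb1, the cyclic AMP response factor, rose by 0.56 and had a trend-adjusted value of 0.03 (adjusted p = 0.865). The GC content of these 3 genes is 39.4%, 41.3% and 39.6%. Of the 9 fits with a further library left out, the Chuk call held in 3, with an adjusted p of up to 0.187, and the calls of Tlr4 and Creb1 in 8. Without control replicate 4 as well, the adjusted p of Tlr4 and Creb1 was 0.157 and 0.124. Prkca and Hmox1, the heme oxygenase, did not pass with or without control replicate 1. Of 16 cytokines and chemokines, which summed to 559 to 649 CPM in control and 515 to 696 CPM in treated libraries, none passed with all libraries and 1 fell without control replicate 1, beside 12.3% of all genes. The trend-adjusted fit without that library called 3 lower and none higher, beside 8.85% and 8.62%, and the median went from −0.07 to −0.32. Il6 was near the floor of the assay, at 0.0400 CPM in control and 0.0472 CPM in treated libraries, and Ccl2 was at 1.04 to 1.74 CPM against 0.459 to 1.28 CPM without a call. Lep, which encodes leptin, was at 0.209 and 0.157 CPM and Nos3 at 0.528 and 0.605 CPM. Cx3cl1, a membrane-bound chemokine, fell by 0.67 without control replicate 1 (adjusted p = 0.0287, and 0.102 without control replicate 4 as well) and by 0.50 in the trend-adjusted fit (adjusted p = 0.0734).

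Of a longer list of 12 macrophage markers, 6 were tested, and these gave no call with all libraries, with Cd68 at 3.62 and 3.72 FPKM in control and treated libraries and Adgre1, Itgam and Ptprc at 0. Without control replicate 1, 1 of the 6 fell, beside 12.3% of all genes, with a median of −0.19, and none passed in the trend-adjusted fits. Ear1 and the pseudogene Ear-ps9, of the eosinophil-associated ribonucleases, fell by 0.78 and 0.83. Ear-ps9 was at 15.1, 17.9, 24.7, 21.3 and 20.1 CPM in control and 10.1, 10.1, 12.2, 13.0 and 10.2 CPM in IS + pNaKtide libraries (adjusted p = 0.0384). Ear2, Retnla, Siglec1 and Trem2, noticed after their values were seen, fell by 0.71, 0.69, 0.68 and 0.56. The Ear genes are near-identical copies and their counts may be divided unevenly among them. H2-Q4, a nonclassical MHC class I gene of a family of similar copies, fell by 0.80 (adjusted p = 0.0651), from 6.73 to 10.6 CPM in control to 3.82 to 6.25 CPM. Of 16 genes of MHC class I antigen presentation, 1 fell with all libraries, beside 0.218% of all genes. Without control replicate 1, 7 fell and none rose, beside 12.3% and 14.4% of all genes. The trend-adjusted fit without that library called 4 lower and none higher, beside 8.85% and 8.62%, and the median went from −0.31 to −0.20. The 23 interferon-responsive genes had medians of −0.33 and −0.23, with no call and 4 lower calls, the latter beside 12.3% of all genes.

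Against IS alone, the addition of pNaKtide gave no gene past the threshold in edgeR, with 564 genes at an unadjusted p under 0.05 and a smallest adjusted p of 0.138. DESeq2 called 14 genes, limma-voom with library weights called 608, and the trend-adjusted fit called 8. IS replicate 4 stood apart from its group, and without it edgeR again called 0 genes. When control replicate 1 was left out of the fit, 4 genes passed (0.0199%), all of them higher with pNaKtide. They were Ndrg1, Mxi1, Egln1 and Fosl1, and they are named because there were only 4. Ndrg1, Mxi1 and Egln1 are known targets of the hypoxia-inducible factor, and Egln1 encodes the prolyl hydroxylase PHD2 that marks this factor for breakdown. Fosl1 is a subunit of the AP-1 factor.

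In 3 of these genes IS libraries were below control replicates 2 to 5, and Mxi1 was instead above control with IS + pNaKtide. Control replicate 1 lay within the IS range for Egln1 and Ndrg1. Egln1 was at 75.4, 74.2, 67.4, 77.5 and 72.3 CPM in IS replicates 1 to 5 and 97.5, 106, 90.4, 94.9 and 96.5 CPM in IS + pNaKtide replicates 1 to 5. It was at 85.4 to 92.6 CPM in control replicates 2 to 5, 73.6 CPM in control replicate 1 and 88.6 to 103 CPM with pNaKtide alone. Ndrg1 was at 3.75 to 5.18 CPM with IS, 6.95 to 8.96 CPM with IS + pNaKtide, 8.06 to 10.2 CPM in control replicates 2 to 5 and 4.76 CPM in control replicate 1. Fosl1 was at 21.2 to 25.1, 29.5 to 42.6, 35.0 to 44.1 and 31.7 CPM in the same order. In all 3 genes the IS and IS + pNaKtide libraries did not overlap, IS replicate 4 included. Mxi1, a repressor of Myc targets, was at 19.5 to 22.9 CPM with IS, 27.5 to 29.8 CPM with IS + pNaKtide, 20.8 to 23.5 CPM in control and 25.4 to 29.4 CPM with pNaKtide alone, and was also called against control (0.35, adjusted p = 0.0972), but not in the trend-adjusted fits (0.22 and 0.13, adjusted p = 0.240 and 0.368).

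The log2 differences, IS + pNaKtide minus IS, were 0.80 for Ndrg1, 0.62 for Fosl1, 0.44 for Mxi1 and 0.41 for Egln1, with adjusted p of 0.228, 0.138, 0.138 and 0.138 with all libraries and 0.0663, 0.0663, 0.0709 and 0.0663 without control replicate 1. Against control replicates 2 to 5, Ndrg1, Fosl1 and Egln1 gave −0.22, −0.12 and 0.12, none of which passed, and in the trend-adjusted fit Egln1 rose by 0.29 (adjusted p = 0.0194). Of 21 genes of glycolysis, a pathway with many targets of the same factor, none was called against IS, and their median was 0.23 beside −0.01 over all genes. Pdk1, another such target, was at 57.6 to 88.3 CPM with IS, 94.2 to 101 CPM with IS + pNaKtide and 65.0 to 87.0 CPM with pNaKtide alone, and passed against IS in the trend-adjusted fit (0.41, adjusted p = 0.0471) and not in the plain fit (adjusted p = 0.938). Whether the activity of the hypoxia-inducible factor differed between these groups was not tested.

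Against pNaKtide alone, the addition of IS gave 3388 genes (16.8%), 1768 higher (8.78%) and 1620 lower (8.04%), and control libraries entered it only through the shared estimate of the spread. Leaving out control replicate 1 gave 4509. The count fell to 22 without pNaKtide replicate 1, 23 without pNaKtide replicate 2, and 219, 399, 502 and 1182 without IS + pNaKtide replicates 3, 4, 5 and 1, and rose to 5484 without pNaKtide replicate 3. The trend-adjusted fit called 2199 (10.9%), 860 higher (4.27%) and 1339 lower (6.65%), and scaling by library size alone gave 3340 higher and 1036 lower. Of the 72 genes called against control with all libraries, 56 passed here in the same direction, although the IS + pNaKtide libraries are shared. Pop1 and Sbsn differed by −0.61 and −0.67, Prelp by −0.73, Dgat2 by −0.45 and Mgll by −0.63, and all 5 passed. Col1a1 differed by −0.64 (adjusted p = 0.0671) and Col1a2 by −0.40 (adjusted p = 0.104). Col1a1 with pNaKtide alone ranged from 1132 to 2413 CPM and overlapped the treated libraries.

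Of the 26 collagen chains, 4 were lower and 2 higher against pNaKtide alone, beside 8.04% and 8.78% of all genes, with a median of −0.15 beside −0.40 against control. Of 78 ribosomal proteins, 58 were lower, beside 8.04% of all genes, with a median of −0.41 and a trend-adjusted count of 53, beside 6.65%. Of 31 adipocyte genes, 13 were lower and 1 higher in this comparison, beside 8.04% and 8.78% of all genes, with a median of −0.20 and a trend-adjusted median of −0.21. Of 64 zinc finger genes, 21 were higher, beside 8.78% of all genes, and 8 in the trend-adjusted fit, beside 4.27%. Whether these differences were larger or smaller than those against control was not tested.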

How the data were processed

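RNA was sequenced from 3T3-L1 cells with a stranded paired-end mRNA kit. Per the submitters' processing notes, reads were trimmed with Trimmomatic 0.38, aligned with HISAT2 2.1.0 and analysed with DESeq2 1.20.0. The authors counted reads per gene with GenomicAlignments and deposited raw counts, which were used for every test here, and FPKM values, which were used only for levels between genes. The deposited normalised counts were not used. For the counting, neither annotation release nor strand setting was given.

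Of 54232 genes, 20139 with more than 14 counts in total over the 30 libraries were tested. Counts were fitted in edgeR 4.0.16 (R 4.3.3) with TMM scaling and the robust quasi-likelihood test over 6 groups, with a BH-adjusted p below 0.1 as the threshold. CPM are counts relative to the TMM-scaled library size. Fits were repeated without control replicate 1, and with offsets that removed the dependence of each library on GC content and log2 length (splines with 5 degrees of freedom). Exact permutation tests were two-sided. Symbols and positions are from GENCODE on GRCm38 and matched 54079 genes.

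The comparison, the 50 gene lists and the decision to leave out control replicate 1 were chosen with earlier results of these data known. Genes were named by a rule: the called genes with the largest changes (up to 10 in each direction with all libraries and 8 without control replicate 1) with mean log2 CPM not under 1, a symbol that is neither a Gm number, a Rik clone nor an accession, and no overlap with control replicates 2 to 5, the member of each list with the smallest p in each direction, of which the text gives some, and genes fixed by name. Col1a2, Col6a2, Hyou1 and the genes said so in the text were named after their values were seen. Alternatives changed the scaling, count filter, threshold, tool, groups in the fit, replicate block and libraries included. DESeq2 1.42.0 and limma 3.58.1 were used for these. Results for some genes are not reported here.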

Additional observations from a re-analysis of the deposited data

Results flagged for a closer look

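Of 184 groups of 5 values examined for the named genes, 16 held 1 library far from the other 4 by Dixon's criterion, and 11 of these were control replicate 1. Chance gives about 1 in 20 groups when groups are not selected. Many of these genes were named because the treated libraries did not overlap control replicates 2 to 5, a choice that can favour groups with control replicate 1 apart, and the genes share libraries, so the numbers are a description only.

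In control replicate 1, Cyp1b1 was at 308 CPM (231 to 252 in the other controls), Dnm3os at 24.1 (3.97 to 5.53), Snhg20 at 8.86 (2.55 to 3.59), Spag1 at 4.92 (1.34 to 1.99), Neat1 at 198 (62.4 to 85.0), Nr3c1 at 85.0 (43.8 to 54.1) and Zfp964 at 3.53 (1.26 to 1.91). In the same library Calr was at 1434 CPM (1934 to 2064 in the other controls), Sdhc at 164 (245 to 263), Eif3i at 109 (191 to 219) and Psmb3 at 114 (182 to 204). For all 11 genes control replicate 1 lay on the side of its group on which the IS + pNaKtide libraries lay.

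The other 5 values were in 4 libraries. IS + pNaKtide replicate 2 was high in Calr at 1520 CPM (1349 to 1392 in the rest of its group) and in Cdkn1a at 266 CPM (243 to 247). IS + pNaKtide replicate 3 was high in Pop1 at 18.2 CPM (15.1 to 15.8), control replicate 4 was low in Epm2a at 1.69 CPM (2.45 to 2.71), and control replicate 5 was high in Siglec1 at 22.2 CPM (16.2 to 17.9). Pop1 and Epm2a kept their groups apart with these libraries included.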

How the results depend on the processing

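Against control with all libraries, the 72 calls became 30 with scaling by library size only, 43 with genes of at least 1 count kept, 8 at an adjusted p of 0.05, 312 with more than 14 counts required in every library, 418 with the GC and length trend taken out, 1152 with the 2 groups alone in the fit, 1398 without IS replicate 4 in the fit, 1486 in DESeq2, 9049 in limma-voom with library weights (control replicate 1 had 0.22 and IS replicate 4 had 0.19) and 6517 without both libraries. Leaving out 1 library gave 2 to 5378. Without control replicate 1, the 5378 calls became 3254 at 0.05, 3518 with the trend taken out and 9554 in limma-voom, and 2233 to 5718 with a further library left out. Against IS, the count of 0 became 14 in DESeq2, 3 with more than 14 counts in every library, 8 with the trend taken out, 608 in limma-voom, 4 without control replicate 1 and 7 without it and IS replicate 4, and 0 to 1 with 1 library left out. Against pNaKtide, the 3388 calls became 1862 with at least 1 count, 464 at 0.05, 2199 with the trend taken out, 5393 with the 2 groups alone and 7118 in limma-voom, and 22 to 5484 with 1 library left out. The cause of these changes was not tested, except that fits without a library hold fewer samples.

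Scaling by library size only raised the median of all genes from 0.01 to 0.09 against control, from 0.03 to 0.14 without control replicate 1 and from 0.04 to 0.15 against pNaKtide. The adipocyte gene sum differed by −3814 to −2238 CPM with 1 library left out; −3814 CPM was without control replicate 1. With library size only it was −1076 CPM (exact permutation p = 0.413), beside −2877 CPM with TMM scaling (exact permutation p = 0.0873).

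Among the genes followed by name, the signs of these turned. With library size only, the log2 differences against control were 0.0088 for Nqo1, 0.071 for Plin1, 0.073 for Src, 0.085 for Hmox1, 0.018 for Ndrg1 and 0.023 for Fosl1, and without control replicate 1 they were 0.036 for Plin1, 0.068 for Src and 0.039 for Hmox1. Hmox1 was at 0.00081 with at least 1 count, 0.010 with more than 14 counts in every library and 0.0036 with the 2 groups alone. With the trend taken out, Fabp4 was at −0.13, Plin1 at 0.12, Cd36 at −0.014, Src at 0.13, Hmox1 at 0.12 and Fosl1 at 0.11, and without control replicate 1 at −0.18, 0.087, −0.068, 0.14, 0.11 and 0.13. Cd36 alone of these had a call, without control replicate 1. With 1 library left out, Plin1 ranged from −0.074 to 0.065, Hmox1 from −0.072 to 0.041, Src from −0.043 to 0.037, Ndrg1 from −0.22 to 0.016 and Fosl1 from −0.13 to 0.0024, and without control replicate 1 Plin1 ranged from −0.13 to 0.0081 and Src from −0.070 to 0.0088.

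The labels give the groups the same replicate numbers, and whether these pair the libraries was checked. The correlations of same-numbered deviations were −0.33 to 0.49, with 3 of 5 over 0.1, and 3 of the 5 IS + pNaKtide libraries correlated best with their own number. These values do not decide whether the numbers pair the libraries, and the main fits used no pairing. Whether a shared culture or day lies behind some of the numbers was not tested. With the replicate block the counts were 1338, 5735, 0 and 4633 against control, against control without replicate 1, against IS and against pNaKtide. For the comparisons with IS and pNaKtide, the removal of the trend and the omission of control replicate 1 were chosen after seeing the data, as were the joint omission of 2 libraries and the alternatives for the adipocyte sum.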

Other observations

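Immediate early genes had medians of 0.12, 0.10, 0.23 and 0.21 over 21 genes with all libraries, without control replicate 1 and in the corresponding trend-adjusted fits, with 1, 5, 4 and 7 higher, beside 0.139%, 14.4%, 0.943% and 8.62% of all genes, and 0, 3, 1 and 1 lower, beside 0.218%, 12.3%, 1.13% and 8.85%. Of 19 circadian clock genes, none passed with all libraries, 7 rose and 1 fell without control replicate 1, beside 14.4% and 12.3% of all genes, and 3 rose and none fell in the trend-adjusted fit, beside 8.62% and 8.85%. Of 22 targets of ATF4 and amino acid synthesis, none passed with all libraries, 11 fell and 3 rose without control replicate 1, beside 12.3% and 14.4% of all genes, and 9 fell and 4 rose in the trend-adjusted fit, beside 8.85% and 8.62%.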
